A study of Mus musculus with 6 samples.

Results

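Chemokines are small secreted proteins that guide the movement of cells, and they act through membrane receptors that signal through inhibitory G proteins. CXC ligands with a glutamate-leucine-arginine (ELR) motif attract neutrophils through Cxcr2, many CC ligands attract monocytes and macrophages through receptors such as Ccr1 and Ccr2, and Cxcl12, made by stromal cells of bone marrow, holds Cxcr4-bearing blood cells in the marrow. The genes of this system were taken from the deposited table as the protein-coding rows named Ccl, Cxcl, Ccr or Cxcr followed by a number, with or without a or b. This gave 56 of 54532 genes, of which 40 were ligand rows (35 symbols, since 5 further rows of Ccl19, Ccl21a, Ccl21b and Ccl27a lie on unplaced scaffolds) and 16 were receptors. The row of Cxcl11 matched by name but is annotated as a polymorphic pseudogene and was left out.

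RNA was sequenced from Prx1-lineage mesenchymal stromal cells of mouse compact bone. Mutant cells came from Zeb1Prx1 mice (Prx1-Cre+; ROSA-YFP; Zeb1fl/fl), in which the Cre recombinase removes the floxed Zeb1 alleles, and control cells from WT mice (Prx1-Cre+; ROSA-YFP; Zeb1wt/wt), with 3 libraries each. Both genotypes therefore carried Prx1-Cre, whose promoter is active in limb mesenchyme, and the YFP reporter; cells were untreated, and the labels used here give no age. Bone chips of femurs and tibias were digested with collagenase and cultured, and cells were sorted by their fluorescence. The labels do not say whether replicates are separate mice, so p-values measure the spread between these libraries, which may be technical. Values are FPKM, fragments scaled to gene length and by a factor per library that differs from its total of assigned fragments. Levels can be compared between genes.

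Zeb1 checked the labels: it had 1.92, 1.59 and 2.84 FPKM in Zeb1Prx1 libraries, against 6.61, 10.3 and 7.12 in WT libraries. Libraries held 14724357 to 18354894 assigned fragments. Macrophage transcripts were abundant in all 6 libraries although the cells were sorted for the Prx1 lineage: the summed FPKM of 20 macrophage and monocyte markers was 10927 to 22038 in Zeb1Prx1 and 13285 to 16136 in WT libraries, with none of the 20 at 0. In the fit described next, 17 of these 20 markers had a log2 change below 0, with a median of -0.35 (85%, beside 48.1% of all genes tested), and 6 were lower at an unadjusted p under 0.05 (30%, beside 6.98% of all genes). Zeb1Prx1 replicate 2 departed from this, with the highest level of all libraries for 8 of the 20 markers. Of 10 neutrophil markers, S100a9, Ngp and Retnlg were at 0 in every library and 7 were detected in at least 1, led by the receptor gene Csf3r at 5.28 to 9.35 FPKM in Zeb1Prx1 and 8.25 to 12.4 in WT; the 10 together summed to 6.599 to 10.9 FPKM in Zeb1Prx1 and 9.25 to 13.2 in WT. Of 8 endothelial markers, Cldn5 was at 0 in every library and 7 were detected, led by Vwf at 0.905 to 1.48 FPKM in Zeb1Prx1 and 1.76 to 2.64 in WT. The stromal genes Col1a1 (3368, 1560 and 2069 FPKM in Zeb1Prx1, 1432, 1829 and 1792 in WT) and Prrx1 (22.6, 18.9 and 21.96 in Zeb1Prx1, 18.1, 30.5 and 20.9 in WT) were present throughout, while Lepr, a marker of marrow stroma, did not exceed 1.26 FPKM in any library. In such mixed RNA, fewer cells of a type and less RNA per cell cannot be told apart.

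Each gene was tested with limma on log2(FPKM + 1), on the whole table, among 12534 genes with at least 1 FPKM in at least 3 libraries; log2 changes are Zeb1Prx1 minus WT with their standard error (SE). Of the chemokine system, 21 members passed this filter, 17 ligands and 4 receptors. No member was called after Benjamini-Hochberg adjustment over all genes at a threshold of 0.05 (smallest limma adjusted p = 0.229), and neither was any gene of the table (0%); voom on recovered fragments also called 0 members. At an unadjusted p under 0.05, 2 of 21 members, the ligands Cxcl3 and Cxcl5, were higher in Zeb1Prx1 (9.52%, beside 8.15% of all genes tested), and 0 of 21 were lower (beside 6.98% of all genes); voom gave the same counts of 2 and 0. With all libraries the share of members was near that of the whole table. Cxcl3 passed the filter through its mutant values, so that its place in these counts was decided by its difference. The count of higher members was 5 of 20 (25%) without Zeb1Prx1 replicate 1, beside 11.8% of all genes, and 5 of 20 without WT replicate 2, beside 5.44%. It was 1 of 19 (5.26%) without Zeb1Prx1 replicate 2, beside 7.35%, and 1 of 20 (5.0%) without Zeb1Prx1 replicate 3, beside 5.53%. The count of lower members was 1 without Zeb1Prx1 replicate 2 (5.26%, beside 6.75%), WT replicate 1 (5.0%, beside 4.76%) or WT replicate 3 (4.76%, beside 3.86%). The same pair were the members whose libraries did not overlap between genotypes, 2 of 21 higher (beside 12.6% of all genes) and 0 lower (beside 11.8%). The median log2 change was 0.25 for the 17 ligands, of which 12 lay above 0, and -0.27 for the 4 receptors, of which 1 lay above 0, against 0.02 for all genes tested. The ligand median was 0.01 without Zeb1Prx1 replicate 3, 0.08 without WT replicate 1, 0.17 without Zeb1Prx1 replicate 2, 0.71 without Zeb1Prx1 replicate 1, and 0.42 and 0.41 without WT replicates 2 and 3. The receptor median was -0.10 without Zeb1Prx1 replicate 3 and -0.17 without WT replicate 3.

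**Figure D1:**
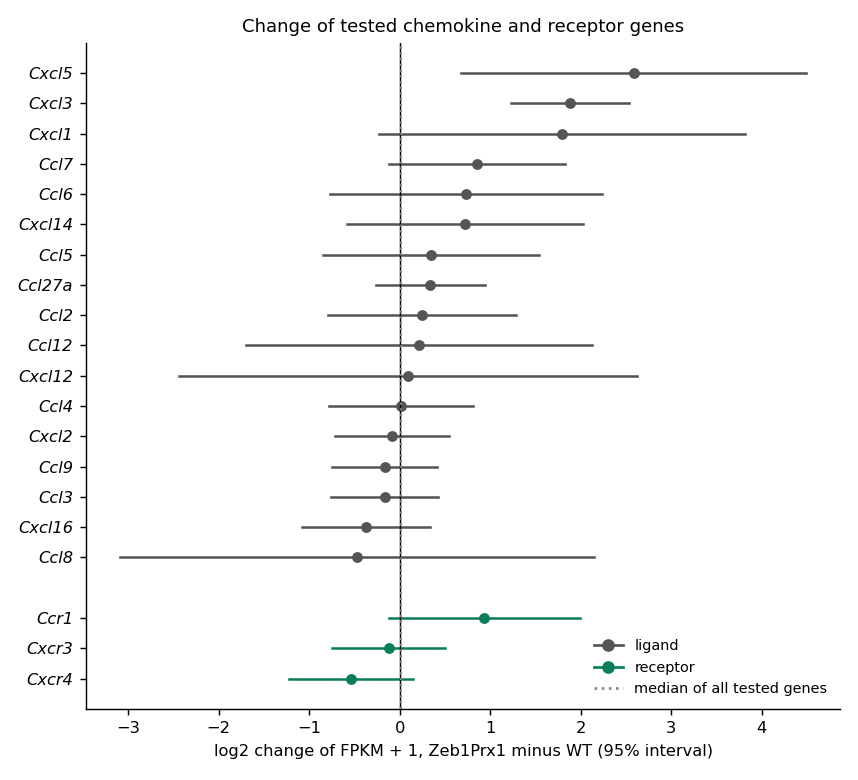
Points give the log2 change of FPKM + 1, Zeb1Prx1 minus WT, and lines its 95% interval from limma, for 17 ligand and 3 receptor genes tested; the dotted line is the median of all tested genes (0.02). The intervals of Cxcl5 and Cxcl3 lie above 0 and those of the other 18 genes drawn include it, before any adjustment over genes.

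The genes of ELR-type ligands stand together on mm10 chromosome 5 between 90759360 and 90905938, in the order Cxcl5, Ppbp, Pf4, Cxcl3, Cxcl15, Cxcl1 and Cxcl2, all on the plus strand. They encode the neutrophil attractants, apart from Pf4, a platelet and macrophage chemokine without the motif. RefSeq (GRCm38.p6) start regions were available for 37 of the 51 member symbols. Cxcl5, Ccl2 and Ccl7 are among those without one, so their start regions were not searched. Those of Cxcl3, Cxcl1 and Cxcl2 are shown, from 250 bases before to 50 bases after the annotated start, because these neighbours share 1 exact sequence element and differ in their values. Capitals mark the match to 1 form of the kappa B motif, the recognition element of the inflammatory factor NF-kB. It was searched exactly as capitalised, on both strands. Apart from a looser form given below, other forms of the motif were not searched, so a window without a match may hold one. All 3 windows lie on the plus strand of chromosome 5, at chr5:90785851-90786150 for Cxcl3, chr5:90890995-90891294 for Cxcl1 and chr5:90903649-90903948 for Cxcl2.
Cxcl3: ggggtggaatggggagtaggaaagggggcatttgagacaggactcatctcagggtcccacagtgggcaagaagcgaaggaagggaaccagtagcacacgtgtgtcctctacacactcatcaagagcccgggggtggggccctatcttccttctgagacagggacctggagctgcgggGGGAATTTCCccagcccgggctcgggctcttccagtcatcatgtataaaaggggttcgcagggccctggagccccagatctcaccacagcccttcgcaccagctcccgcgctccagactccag
Cxcl1: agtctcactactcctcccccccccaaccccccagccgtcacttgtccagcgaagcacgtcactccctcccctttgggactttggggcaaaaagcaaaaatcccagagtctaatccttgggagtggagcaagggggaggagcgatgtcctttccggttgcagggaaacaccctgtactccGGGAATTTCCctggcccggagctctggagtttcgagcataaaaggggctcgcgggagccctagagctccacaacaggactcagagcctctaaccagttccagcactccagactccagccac
Cxcl2: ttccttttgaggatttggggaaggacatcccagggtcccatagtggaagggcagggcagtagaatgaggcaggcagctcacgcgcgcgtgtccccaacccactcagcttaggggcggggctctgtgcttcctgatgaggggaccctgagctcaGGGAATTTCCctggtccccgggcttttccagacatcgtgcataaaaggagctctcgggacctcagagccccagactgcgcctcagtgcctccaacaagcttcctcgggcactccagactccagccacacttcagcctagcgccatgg
The match begins 73 bases before the start in Cxcl3, 71 in Cxcl1 and 97 in Cxcl2. Over all 32817 RefSeq windows of this length, 0.0884% hold it. Among the 37 member symbols with a window, Ccr3 is the other that does. A looser form, with any base at the fourth and the fifth position on both strands, which includes every match above, was found in 1.63% of windows and in 6 member symbols, these 4 with Ccl20 and Ccl9. The E-box CACCTG, which Zeb1 is known to bind, was in 20.2% of all windows and in those of 9 member symbols (Ccl20, Ccl22, Ccl27a, Ccl27b, Ccl28, Ccr4, Ccr9, Cxcr2 and Cxcr3), and not in those of Cxcl1, Cxcl2 or Cxcl3.

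**Figure D2:**
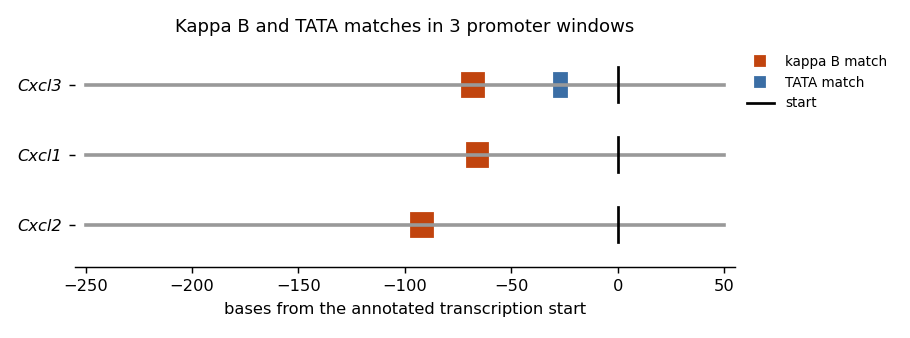
The map places the kappa B match (red) and the TATAAA match (blue) on the windows of Cxcl3, Cxcl1 and Cxcl2, in bases from the annotated transcription start (black bar), to scale. The kappa B match begins 73, 71 and 97 bases before the start, and of the 3 windows that of Cxcl3 also holds TATAAA, beginning 30 bases before it. The search was for exact TATAAA, so variant forms, such as CATAAA in the Cxcl1 and Cxcl2 windows, are not drawn.

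Of these ELR genes, Cxcl5 and Cxcl3 had every mutant value above every WT value. Cxcl5, a neutrophil attractant made by epithelial and stromal cells, had 60.1, 128 and 243 FPKM in Zeb1Prx1 libraries, against 5.22, 41.7 and 32.5 FPKM in WT libraries. It averaged 144 ± 92.7 FPKM in Zeb1Prx1 and 26.5 ± 19.0 in WT (SD, n = 3 each), 5.43-fold in mean FPKM. The lowest mutant library, replicate 1, stood above the highest WT library, replicate 2, and WT replicate 1 was far below the other WT libraries. The log2 change was 2.58 (SE 0.81, 95% interval 0.68 to 4.49; limma adjusted p = 0.278). The fold was 3.54 without Zeb1Prx1 replicate 3 and 7.61 without WT replicate 2.

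Cxcl3, a close relative of Cxcl2, had 2.21, 5.00 and 4.55 FPKM in Zeb1Prx1 libraries, against 0.109, 0.502 and 0.279 FPKM in WT libraries. In fragments these were 124, 315 and 243 in Zeb1Prx1 and 7, 27 and 15 in WT, so that the WT values rest on few reads. The mean of 3.92 ± 1.499 FPKM in Zeb1Prx1 and 0.297 ± 0.197 in WT (SD, n = 3 each) is a 13.2-fold difference, 20.2-fold without WT replicate 2. On the log2 scale the change was 1.88 (SE 0.27, 95% interval 1.23 to 2.53; limma adjusted p = 0.229). The gene passed the filter through the mutant libraries alone, so it had to differ to be tested, and leaving out any mutant library removes it from the test. Library weights were highest for Zeb1Prx1 replicate 3 (2.82) and lowest for Zeb1Prx1 replicate 2 (0.226). With them the limma adjusted p of Cxcl3 was 0.0328, the 1 member called under that setting, which called 447 genes of the whole table.

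Cxcl1, a further ligand of Cxcr2, had 10.4, 9.23 and 46.1 FPKM in Zeb1Prx1 libraries, against 1.05, 14.7 and 3.09 FPKM in WT libraries. The genotypes overlapped, since WT replicate 2 exceeded mutant replicates 1 and 2. The mean was 3.49-fold that of WT, 1.56-fold without Zeb1Prx1 replicate 3 and 10.6-fold without WT replicate 2, with a log2 change of 1.79 (SE 0.85, limma adjusted p = 0.357). Cxcl2, with the same kappa B match in its window, had 0.391, 1.58 and 0.886 FPKM in Zeb1Prx1 libraries, against 1.35, 1.04 and 0.693 FPKM in WT libraries. These ranges overlapped, with a log2 change of -0.09 (SE 0.27). Cxcl15, known as lungkine, stayed under the filter with 5, 17 and 35 fragments in Zeb1Prx1, against 0, 0 and 21 in WT.

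The transcripts of this cluster resemble one another: over 358 aligned bases Cxcl3 is 89.9% identical to Cxcl2, and Cxcl1 is 78.9% identical to Cxcl2 over 341. How reads in such stretches were assigned is not given in the sources used here. Ppbp, the neighbour of Cxcl5 that encodes the ELR chemokine Cxcl7 but lies outside the naming rule, had 5.00, 12.6 and 17.2 FPKM in Zeb1Prx1 libraries, against 4.69, 3.78 and 1.56 FPKM in WT libraries, without overlap (log2 change 1.47, SE 0.46, limma adjusted p = 0.278). Pf4 overlapped, at 27.6, 40.3 and 106 FPKM in Zeb1Prx1 and 42.3, 39.3 and 21.6 in WT. Summed over the 5 ELR members, the level was 73.2, 144 and 296 FPKM in Zeb1Prx1 libraries and 7.73, 57.9 and 37.2 FPKM in WT libraries. Cxcr2, the receptor that binds these ligands in neutrophils, had 0 fragments in every library, which allows up to 0.0538 to 0.0644 FPKM per library, and Cxcr1 had 9 fragments in Zeb1Prx1 and 5 in WT.

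**Figure D3:**
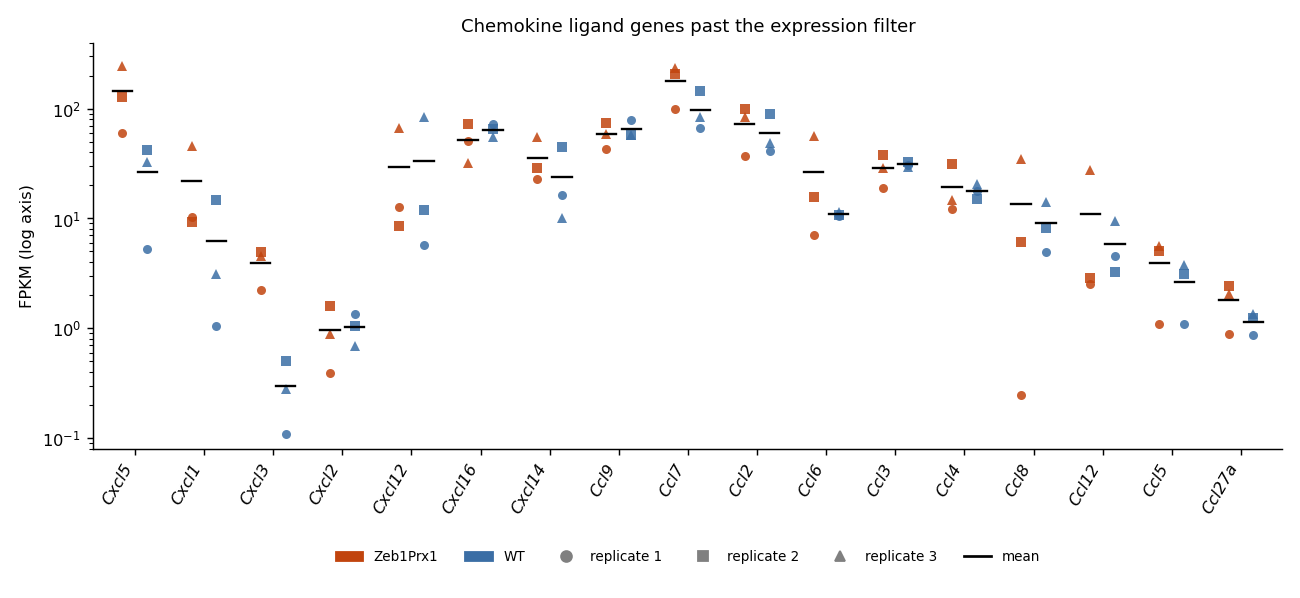
FPKM on a log axis of the 17 ligand genes past the filter, with Zeb1Prx1 in red and WT in blue, 1 symbol per replicate and a bar for the mean. Cxcl5 and Cxcl3 separate the genotypes, and Ccl8 spans 0.244 to 34.6 FPKM among the mutant libraries.

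The remaining CXC ligands overlapped between genotypes. Cxcl12, the retention signal of marrow stroma, had 12.8, 8.50 and 67.3 FPKM in Zeb1Prx1 libraries, against 5.74, 12.0 and 83.5 FPKM in WT libraries. Replicate 3 of each genotype stood far above the others, and the log2 change was 0.09 (SE 1.07, 95% interval -2.43 to 2.62), so the interval leaves room for large differences either way, and leaving out 1 library gave -0.77 without Zeb1Prx1 replicate 3 and 1.15 without WT replicate 3. Cxcl14, a ligand of epithelia and stroma, had 23.1, 28.7 and 54.97 FPKM in Zeb1Prx1 and 16.5, 44.9 and 10.1 in WT (log2 change 0.72, SE 0.55); the change was 0.27 without WT replicate 3, 0.37 without Zeb1Prx1 replicate 3 and 1.3 without WT replicate 2. Cxcl16, a membrane-bound ligand and scavenger receptor of macrophages, had 50.8, 72.6 and 31.9 FPKM in Zeb1Prx1 and 72.0, 65.6 and 55.1 in WT (log2 change -0.37, SE 0.30), with a change of -0.07 without Zeb1Prx1 replicate 3 and -0.65 without Zeb1Prx1 replicate 2; 18.3% of its exon bases overlap Zmynd15 on the opposite strand, so its reads are uncertain to that extent. The interferon-induced ligands, which attract T cells through Cxcr3, were near silent: Cxcl10 had 9, 27 and 32 fragments in Zeb1Prx1 and 22, 3 and 22 in WT, and Cxcl9 had 10 fragments in all mutant and 11 in all WT libraries.

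The CC ligands of monocytes and macrophages included Ccl7, which had the highest mean FPKM of the ligands in each genotype. It had 98.6, 207 and 234 FPKM in Zeb1Prx1 libraries, against 66.4, 144 and 83.5 FPKM in WT libraries. Zeb1Prx1 replicates 2 and 3 exceeded every WT library while replicate 1 lay among them, and the log2 change was 0.85 (SE 0.41, limma adjusted p = 0.361). Ccl2, the main ligand of Ccr2 and neighbour of Ccl7 on chromosome 11, had 36.7, 99.0 and 83.5 FPKM in Zeb1Prx1 and 41.2, 90.0 and 48.7 in WT, with overlap (log2 change 0.25, SE 0.44). The level of Ccl7 was 2.68, 2.09 and 2.80 times that of Ccl2 in Zeb1Prx1 libraries and 1.61, 1.60 and 1.71 times in WT libraries. These ratios did not overlap; the exact two-sided permutation test gave p = 0.1, the smallest that 3 libraries against 3 allow, and 0.5 after adjustment over the 5 ratios of neighbouring ligands computed. The pairs were chosen after their values were seen, and the other 4 ratios (Cxcl5 over Cxcl1, Ccl6 over Ccl9, Ccl4 over Ccl3 and Ccl12 over Ccl8) overlapped.

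Further along that locus, which spans 81.2 kb from Ccl2 to Ccl8, the mutant libraries disagreed among themselves. Ccl8, an inflammatory ligand expressed by tissue macrophages, had 0.244, 6.08 and 34.6 FPKM in Zeb1Prx1 libraries, against 4.92, 8.27 and 14.1 FPKM in WT libraries. Ccl12, a mouse ligand of Ccr2, had 2.55, 2.89 and 27.6 FPKM in Zeb1Prx1, against 4.58, 3.27 and 9.58 in WT. For both genes replicate 3 was the highest library of its genotype, and without Zeb1Prx1 replicate 3 the fold of mean FPKM moved below 1, to 0.347 for Ccl8 and 0.468 for Ccl12, against 1.497 and 1.89 with all libraries. On the log2 scale, which gives each library equal weight, the change was -0.47 (SE 1.11) for Ccl8 and 0.22 (SE 0.81) for Ccl12.

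In the second group on chromosome 11, from Ccl5 to Ccl4 over 139 kb, the genotypes overlapped for each ligand. Ccl6 had 7.11, 15.8 and 56.4 FPKM in Zeb1Prx1 and 10.5, 10.8 and 11.5 in WT, so that its 2.41-fold mean rested on Zeb1Prx1 replicate 3 (1.05-fold without it). Its neighbour Ccl9, a Ccr1 ligand of the myeloid lineage, had 43.0, 73.6 and 58.8 FPKM in Zeb1Prx1 and 79.4, 57.4 and 57.9 in WT. Ccl3 and Ccl4, inflammatory ligands made by macrophages, had means of 28.6 ± 9.59 and 19.5 ± 10.4 FPKM in Zeb1Prx1 and of 31.1 ± 1.68 and 17.8 ± 2.72 in WT (SD, n = 3 each). Ccl5 had 1.10, 5.03 and 5.59 FPKM in Zeb1Prx1 and 1.08, 3.12 and 3.73 in WT. The log2 changes of these genes lay between -0.17 and 0.73. Ccl27a, a skin chemokine, had 0.89, 2.43 and 2.07 FPKM in Zeb1Prx1 and 0.873, 1.23 and 1.34 in WT; its transcript is 99.4% identical over 464 bases to the gene model Gm13306, so its reads are uncertain.

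Over the whole family, the summed level of the ligands was 383, 737 and 1000 FPKM in Zeb1Prx1 libraries, against 362, 549 and 469 FPKM in WT libraries (707 ± 309 and 460 ± 94.2, SD, n = 3 each). Zeb1Prx1 replicates 2 and 3 exceeded every WT library, and replicate 1 fell within the WT range. The FPKM sum over all genes was 372566 in Zeb1Prx1 replicate 2, against 278987 to 289879 in WT libraries. As a share of that sum, the ligands held 0.1355, 0.198 and 0.320% in Zeb1Prx1 and 0.127, 0.189 and 0.168% in WT. Of the 17 tested ligands, 8 were highest in Zeb1Prx1 replicate 3 and 7 in Zeb1Prx1 replicate 2, while 8 were lowest in Zeb1Prx1 replicate 1 and 7 in WT replicate 1. The SD of log2(FPKM + 1) was larger in Zeb1Prx1 than in WT for 13 of the 17 ligands. The same counts over all genes tested were not made, so these cannot be read as particular to the ligands. Zeb1Prx1 replicate 3 was also the highest library for all 7 chondrocyte markers. Of these, Col2a1 had 383, 60.001 and 1175 FPKM in Zeb1Prx1 and 5.32, 1.17 and 4.38 in WT. Stromal markers were divided: of 12, 4 were highest in Zeb1Prx1 replicate 3, 4 in Zeb1Prx1 replicate 1, and 1, 1 and 2 in WT replicates 1, 2 and 3. The stromal matrix gene Lum had 90.4, 31.5 and 695 FPKM in Zeb1Prx1 and 2.10, 32.2 and 23.4 in WT. Postn, of the same list, had 237, 233 and 27.0 in Zeb1Prx1 and 220, 88.7 and 151 in WT. Of 7 osteoblast markers, 6 were highest in Zeb1Prx1 replicate 1 and 1 in WT replicate 3. The 7 chondrocyte markers summed to 148 to 2430 FPKM in Zeb1Prx1 and 13.7 to 201 in WT libraries. The 12 skeletal stromal markers summed to 2886 to 4991 in Zeb1Prx1 and 2351 to 3176 in WT. Col1a1 and Col1a2, with means of 2332 and 885 FPKM in Zeb1Prx1 and 1684 and 572 in WT, made up most of the stromal sums. Of 11 stromal markers tested, 6 had a log2 change above 0 and 5 below. At an unadjusted p under 0.05, 1 was higher (9.09%) and 3 were lower (27.3%), beside 8.15% and 6.98% of all genes. Col9a1, of the cartilage list, was at 0 in all 3 WT libraries, Acan in WT replicate 1 and Cnmd in WT replicate 2, and no stromal marker was at 0 in any library. The part of these cell markers in the chemokine values was not tested.

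**Figure D4:**
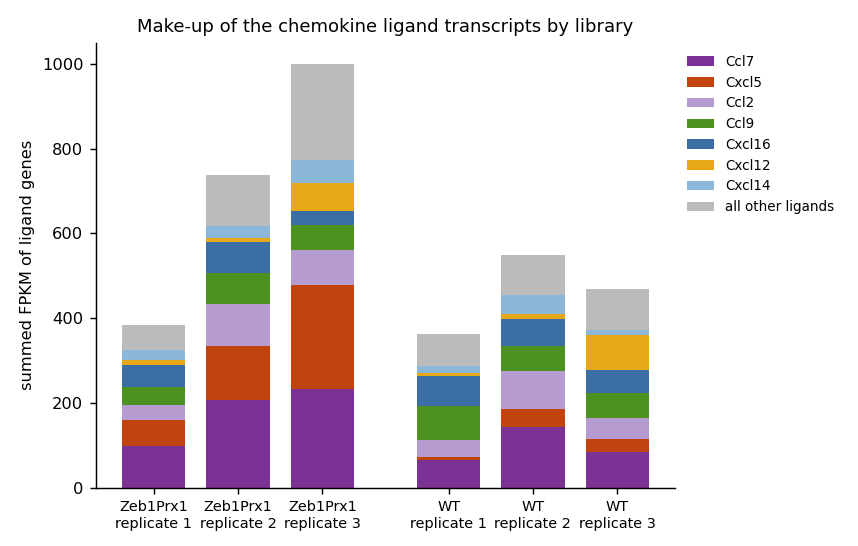
Bars give the summed FPKM of all ligand genes in each library, divided by gene, with the 3 Zeb1Prx1 libraries on the left and the 3 WT libraries on the right. Ccl7 makes up 23.4 to 28.0% of the sum in Zeb1Prx1 and 17.8 to 26.2% in WT, and the Cxcl5 segment is tallest in Zeb1Prx1 replicate 3.

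Among the receptors past the filter, Cxcr4, which binds Cxcl12, had 72.0, 64.9 and 46.2 FPKM in Zeb1Prx1 libraries, against 81.8, 126 and 64.6 in WT. The genotypes overlapped, since WT replicate 3 lay below Zeb1Prx1 replicates 1 and 2, and the log2 change was -0.53 (SE 0.29, limma adjusted p = 0.392), -0.27 without WT replicate 2 and -0.35 without Zeb1Prx1 replicate 3. Ccr1, the myeloid receptor of Ccl3, Ccl5, Ccl6, Ccl7 and Ccl9, had a higher mean in Zeb1Prx1, with 4.28, 10.9 and 17.9 FPKM in Zeb1Prx1 and 3.70, 6.11 and 4.11 in WT (log2 change 0.93, SE 0.45, limma adjusted p = 0.357). Its replicate 1 lay within the WT range, and its mean was 2.38-fold that of WT, 1.64-fold without Zeb1Prx1 replicate 3; the log2 change was 0.52 without that library and 1.44 without Zeb1Prx1 replicate 1. Cxcr3 had 1.83, 1.73 and 0.567 FPKM in Zeb1Prx1 and 1.58, 1.16 and 1.81 in WT, with overlap.

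Of the 20 macrophage markers, 17 had a lower mean FPKM in Zeb1Prx1 than in WT, as Cxcr4 had, and 3 a higher one: Lyz2 (10853 in Zeb1Prx1 and 9542 in WT), Tyrobp (345 and 289) and Aif1 (13.4 and 12.0). The macrophage receptor gene Adgre1 had 164, 119 and 117 FPKM in Zeb1Prx1 and 215, 230 and 250 in WT. Ptprc, the pan-leukocyte gene, had 15.4, 13.97 and 9.12 in Zeb1Prx1 and 19.2, 19.8 and 20.7 in WT, and neither passed (limma adjusted p = 0.264 for Adgre1 and 0.286 for Ptprc). The part of macrophage content in the level of Cxcr4 was not tested.

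**Figure D5:**
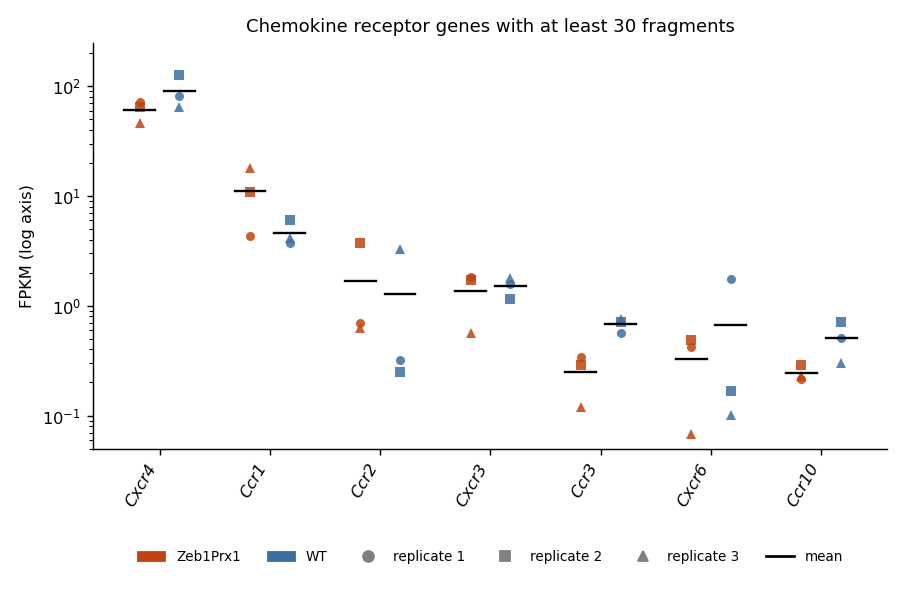
FPKM on a log axis of 7 receptor genes with at least 30 fragments, with Zeb1Prx1 in red and WT in blue, 1 symbol per replicate and a bar for the mean. Ccr3 and Ccr10, both under the filter, do not overlap between genotypes in FPKM (11.8% of all genes tested are lower without overlap). That share is over genes past the filter, and none was computed for genes under it. For Ccr10 the gap is 0.289 against 0.302 FPKM, and its fragments overlap. Ccr2 is high in 1 library of each genotype.

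Among receptors under the filter, Ccr2, which draws monocytes out of the marrow, had 75, 457 and 65 fragments in Zeb1Prx1 and 40, 26 and 341 in WT, so that 1 library of each genotype held most of them. Ccr3, the eotaxin receptor of eosinophils, had 18, 17 and 6 fragments in Zeb1Prx1 and 34, 36 and 38 in WT. Scaled by assigned fragments the ratio of Ccr3 was 0.362 (95% counting interval 0.246 to 0.523), and that of Ccr10, a receptor of skin-homing cells, 0.466 (0.263 to 0.802) from 21 and 43 fragments. By library Ccr10 had 6, 9 and 6 fragments in Zeb1Prx1 and 16, 19 and 8 in WT, which overlap. Cxcr6, the receptor of Cxcl16, had 13, 17 and 2 fragments in Zeb1Prx1 and 62, 5 and 3 in WT. These intervals cover counting error only, and no test across libraries was made at this depth. Of the 35 members under the filter, 12 rows had 0 fragments in all libraries (9 ligand rows and the receptors Cxcr2, Ccr6 and Ccr8), 14 had 1 to 29 fragments in all and 9 had at least 30. The ligands in this last group, besides Cxcl10 and Cxcl15, were Ccl25 (335 fragments in Zeb1Prx1 and 407 in WT, ratio 0.785, counting interval 0.677 to 0.909), Ccl28 (18 and 27) and Ccl20 (20 and 16). Among the 9 ligand rows at 0 were Cxcl13 and all rows of Ccl19, Ccl21a and Ccl21b, ligands of lymphoid tissue. The last 3 genes also have rows on unplaced scaffolds, and how reads shared by such copies were assigned is not given. Their counts of 0 therefore do not show that they were silent.

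Other genes of the system were described from lists chosen with earlier results of these data known. Of 17 chemokine-related genes outside the naming rule, 10 were tested, with 6 log2 changes above 0, a median of 0.30, 1 higher at an unadjusted p under 0.05 (Ppbp) and 0 lower. They included the cytokine Mif (371, 562 and 611 FPKM in Zeb1Prx1 and 313, 406 and 197 in WT), the receptor gene Cmklr1 (7.52, 2.08 and 4.32 in Zeb1Prx1 and 7.41, 5.84 and 10.4 in WT) and the fractalkine receptor Cx3cr1 of macrophages (63.5, 63.1 and 7.51 in Zeb1Prx1 and 89.0, 72.8 and 71.8 in WT). All mutant values of Cx3cr1 lay below all WT values, by the widest margin in replicate 3 (log2 change -1.26, SE 0.75, limma adjusted p = 0.421). Of 30 genes that signal downstream of chemokine receptors, 29 were tested, 25 had a log2 change below 0, with a median of -0.31, and 8 were lower and 0 higher at an unadjusted p under 0.05, beside 6.98% and 8.15% of all genes. The leading members were Dock2, the Rac activator of leukocytes (10.9, 8.17 and 7.63 FPKM in Zeb1Prx1 and 15.5, 17.5 and 16.5 in WT), and the phosphoinositide 3-kinase gamma genes Pik3cg (12.1, 8.75 and 7.34 in Zeb1Prx1 and 16.7, 17.04 and 20.1 in WT) and Pik3r5 (18.7, 15.2 and 12.1 in Zeb1Prx1 and 22.4, 28.6 and 27.8 in WT). Prex1, a further Rac activator, had 23.8, 14.3 and 13.8 FPKM in Zeb1Prx1 and 31.1, 32.2 and 31.2 in WT. Cx3cr1 and these 4 genes were named for the smallest unadjusted p of their lists, a choice that favours ranges lying apart. The ranges of these 4 genes were apart, beside 11.8% of all genes tested that were lower without overlap. None of the 4 passed (limma adjusted p between 0.258 and 0.273). They are expressed mainly in leukocytes, and the part of macrophage content, whose markers are given above, was not tested.

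Genes of the inputs known to induce these ligands lay on both sides of 0. Of 26 tested NF-kB inputs and targets, 9 had a log2 change above 0 and 17 below, with a median of -0.17, and 1 was lower at an unadjusted p under 0.05 (3.85%, beside 6.98% of all genes). That gene was Tnfaip3, a feedback inhibitor, at 1.44, 1.42 and 1.26 FPKM in Zeb1Prx1 and 2.09, 2.30 and 2.03 in WT. Lcn2, a secreted iron-binder and NF-kB target, had 31.3, 9.20 and 346 FPKM in Zeb1Prx1 and 0.0208, 39.9 and 0.248 in WT, with overlap. The subunit gene Nfkb1 had 10.6, 10.1 and 9.59 FPKM in Zeb1Prx1 and 12.2, 11.7 and 12.0 in WT. The inhibitor gene Nfkbie had 7.52, 9.44 and 7.07 in Zeb1Prx1 and 8.76, 10.8 and 12.1 in WT. Nfkb1 did not overlap between genotypes and Nfkbie did. None of these genes, named for the smallest unadjusted p of their list, passed. Of 13 tested interferon inputs and factors, 7 lay above 0 and 6 below, with a median of 0.00428, and 1 was lower at an unadjusted p under 0.05 (7.69%, beside the same 6.98%), the myeloid factor Irf8 (12.1, 15.2 and 7.90 FPKM in Zeb1Prx1 and 16.9, 18.9 and 17.98 in WT).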

How the data were processed

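RNA of 3 Zeb1Prx1 and 3 WT libraries was sequenced. The authors deposited 1 table of FPKM per gene; the build named is mm10, per the submitters' processing notes, while aligner and counter were not given in the sources used here. Gene length is a further deposited column and has no other unit than bases, per the file headers. All 127408 FPKM values above 0 were whole multiples of what 1 fragment is worth (tolerance 1e-06), so fragments were recovered, and totals are sums of these.

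Genes with at least 1 FPKM in at least 3 libraries were tested on log2(FPKM + 1) with limma 3.58.1 in R 4.3.3, all genes in one fit, with Benjamini-Hochberg adjustment; a fold on this scale understates the change of low genes. Voom (limma) was run on the recovered fragments, with trimmed-mean-of-M-values factors computed directly. Transcripts were compared with blastn 2.17.0. The fit was checked on simulated data. Alternatives were other pseudocounts, no filter, other scalings, library weights, a replicate block and leaving out each library. The members and lists were chosen with earlier results of these data known. Named by rule are Zeb1, every member past the filter but 1 receptor, which is not reported here, those under it with at least 30 fragments, and at most 4 genes of each further list with the smallest unadjusted p; Pf4, the markers and other members under the filter were named after their values were seen, and the ratios of neighbouring ligands were chosen after seeing the data. Ratios of fragments have exact 95% intervals that cover counting error only, and the limit for a count of 0 is 3 fragments.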

Additional observations from a re-analysis of the deposited data

How the results depend on the processing

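Each genotype has 3 libraries, and members under the filter rest on few fragments. No member was called when 1 library was left out (0 to 0 members). Leaving out 1 library gave 1 to 5 members higher and 0 to 1 lower at an unadjusted p under 0.05, a ligand median of 0.01 to 0.71 and a receptor median of -0.38 to -0.10. Library weights in limma gave 6 higher, 3 lower and 1 called member, a ligand median of 0.79 and a receptor median of -0.47, and called 447 genes of the whole table. The weights were 0.655, 0.226 and 2.82 for Zeb1Prx1 replicates 1, 2 and 3, and 0.918, 1.49 and 1.745 for the WT replicates. The weighted mutant values thus rest mainly on Zeb1Prx1 replicate 3. Equal FPKM sums gave 2 lower members, with the median of all genes at -0.12. Without a filter 1 member was lower and the receptor median was -0.03. The same-numbered libraries did not deviate together (correlations 0.029, -0.413 and 0.08), so the numbers are not taken to pair them; with a replicate block 4 members were higher. For library weights, equal FPKM sums, no filter and a replicate block, the share of all genes at an unadjusted p under 0.05 was not computed. The counts of higher and lower members under these settings thus cannot be read as particular to the members. The cause of the differences between settings was not tested. Other pseudocounts and voom gave the same counts as the fit reported. Median-of-ratios scaling also did, but its factor was 1.006 in every library, so it could not change the counts and is no check. Of 302 alternative log2 changes of single tested members and Zeb1, 283 had the same sign and 19 the opposite one. The 302 include those of median-of-ratios scaling. By gene, 11 changed sign under at least 1 alternative and 11 under none.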
